A study of Mus musculus with 18 samples.

Results

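The effect of interferon gamma priming on the microRNA (miRNA) content of extracellular vesicles (EVs) was read from 10 small RNA libraries out of the 18 in the series. They were chosen by the labels alone, as 5 libraries named primed EV and 5 named naive EV. The vesicles came from mouse adipose stromal cells (ASC), which are fibroblast-like mesenchymal cells of fat tissue, from adult animals of the strain given as NGL. Primed cells had 24 h of interferon gamma in alpha MEM with 2% EV-free serum. Cells with and without this exposure, the naive group being those without, then grew for 48 h in the same medium. The dose of interferon gamma is not given in the sources used here. The other 8 libraries are of the cells themselves, 4 naive ASC and 4 primed ASC. The labels do not state whether replicates are separate animals or cultures. The p-values therefore reflect the spread among these libraries alone, which may be technical.

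Interferon gamma is a cytokine of T cells and natural killer cells, and it raises genes of antigen presentation and inflammation in most cell types. Vesicles released by cells carry proteins and short RNAs, miRNAs among them. A miRNA is cut from a hairpin and guides an Argonaute protein to messenger RNAs, mostly through its seed, bases 2 to 8 from the 5′ end. The counts used here are of reads per annotated hairpin locus, so both arms of a hairpin are summed. Values are given as CPM, counts scaled to a common library size, after TMM scaling, which aligns the typical locus between libraries.

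The mature sequences below, from RefSeq on GRCm38.p6, belong to the 5 loci of at least 10 CPM at which, after TMM scaling, every primed EV library lay above every naive one, with the seed in capitals. The arms shown share no seed with each other, and the opposite arms are not shown. For Mir147 and Mir140 no sequence of the opposite arm was found. The counts do not tell which arm of a hairpin was read, so these seeds need not be those of the arms that rose.
miR-147-5p: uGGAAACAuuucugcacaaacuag
miR-140-3p: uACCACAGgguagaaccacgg
miR-155-5p: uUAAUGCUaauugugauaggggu
miR-148a-3p: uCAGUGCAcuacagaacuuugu
miR-101b-3p: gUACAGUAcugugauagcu

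The next sequences show families with nearly one sequence, whose members are compared below. The let-7 members carry the seed GAGGUAG and differ from each other after it. The miR-125 members and miR-351 share the seed CCCUGAG.
let-7a-5p: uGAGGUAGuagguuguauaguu
let-7b-5p: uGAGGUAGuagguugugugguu
let-7c-5p: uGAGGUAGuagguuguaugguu
let-7f-5p: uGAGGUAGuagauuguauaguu
miR-125b-5p: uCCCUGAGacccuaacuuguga
miR-125a-5p: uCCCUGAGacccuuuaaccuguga
miR-351-5p: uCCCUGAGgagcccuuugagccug
RefSeq sequences were found for 228 of the 245 loci tested, and 32 of these share a mature sequence with another locus. Reads of such a sequence can be split between loci or lost in counting, so single members of the let-7 and miR-125b groups are uncertain.

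The EV libraries held 613448 to 3052942 counts, at 309 to 423 loci. Muscle and neuronal miRNAs were near the floor in all 10, with Mir1a-1, Mir133a-1, Mir133a-2, Mir124a-1, Mir124a-2, Mir124a-3, Mir9-1 and Mir9-2 at 0. Mesenchymal and fibroblast miRNAs took 70.4% to 73.3% of counts in naive EVs and 72.4% to 74.9% in primed EVs, with Mir22, Mir143, Mir21a, Mir10a and Mir10b the most abundant loci. Blood and epithelial miRNAs were also present, and their levels are given with the results they touch. After TMM scaling, the libraries' spread at a typical locus of at least 100 CPM was a coefficient of variation of 22.8% in naive EVs and 19.2% in primed EVs (medians over 150 loci).

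For most of the vesicle miRNA profile no difference between primed and naive EVs was detected. Of 245 loci tested, 2 passed an adjusted p under 0.05, or 0.816%, both higher in primed EVs: Mir147 and Mir140. No locus passed in the lower direction (0%). These calls, and those given for single loci and lists, are from the fit without a replicate block. At an unadjusted p under 0.05 there were 25 loci, 10.2% of those tested, 16 of them higher (6.53%) and 9 lower (3.67%). The 2 groups of 5 libraries did not overlap at 6 loci (2.45%), Mir147, Mir140, Mir155, Mir148a, Mir101b and Mir3095, all with higher values in primed EVs. That count depends on the scaling, a comparison added after the data were seen: with library totals alone it was 14, 4 with primed EVs higher and 10 lower, and 3 of the 6, Mir147, Mir140 and Mir3095, were among them. With TMM, fold changes were centred near 0, with 127 loci (51.8%) above it and a median of 0.02 on the log2 scale. TMM aligns the typical locus, so this centring is largely set by the scaling and does not bear on priming. Medians under other scalings are given below. The median size of a change was 0.26, about that of its median SE of 0.29.

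**Figure D1:**
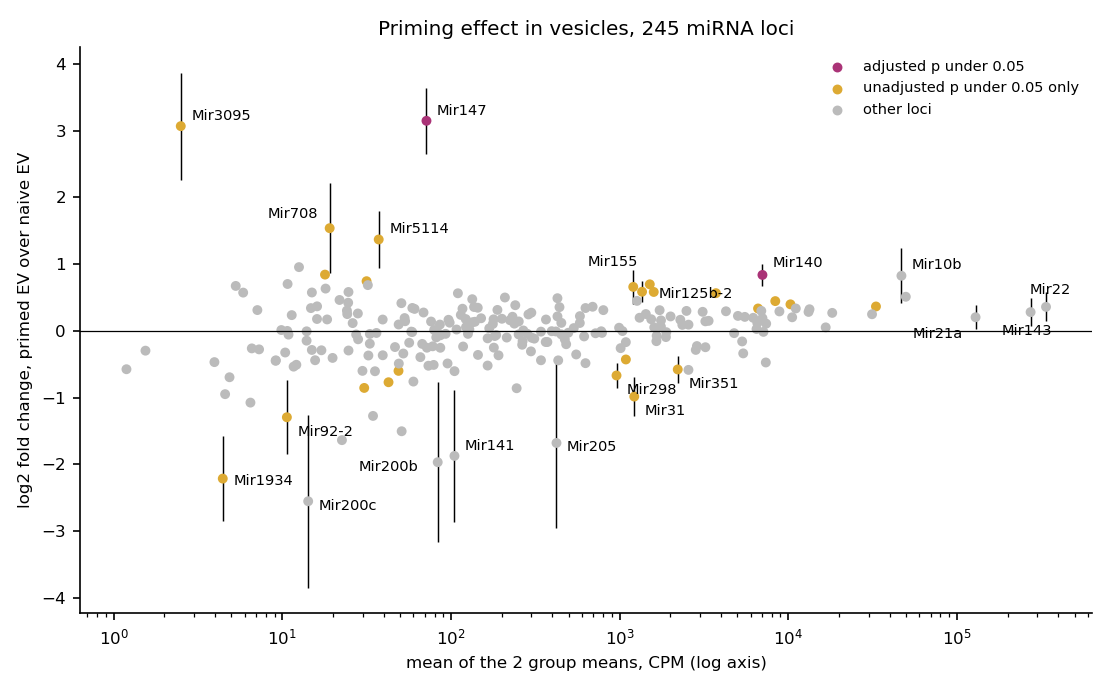
Log2 fold change of primed over naive EVs (vertical axis) against the mean level in CPM (log axis) for the 245 loci, with the SE drawn for labelled loci. Mir147 at 3.15 and Mir140 at 0.84 are the 2 loci with an adjusted p under 0.05.

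Mir147 rose most among the loci that passed. It makes miR-147, known from macrophages, where inflammatory stimuli induce it. Which arm of the hairpin rose here is not known, as the counts sum both arms. The hairpin lies at chr2:122640803-122640881, plus strand (GRCm38), in a UTR of the protein-coding gene AA467197. Naive EV libraries 1 to 5 held 9.32, 16.6, 14.4, 9.97 and 23.1 CPM of it, and primed EV libraries 1 to 5 held 141, 51.1, 137, 264 and 49.9 CPM. Every primed library lay above every naive one, and primed EV 2 and 5 were the lowest of the primed group. The level in primed EVs was 8.85-fold that of naive EVs (log2 fold change 3.15 with an SE of 0.49, edgeR adjusted p = 8.27e-04, 95% interval 2.12 to 4.17). These levels rest on 69 counts in the naive libraries and 601 in the primed ones. Reads were counted without molecular identifiers, so such counts are not independent molecules. In bulk vesicle preparations, more vesicles that carry a miRNA and more copies in each cannot be told apart, and neither can the number of cells of a kind and the RNA that each gives.

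The same locus rose in the cells. Counts of Mir147 were 1, 3, 1 and 1 in naive ASC and 5, 9, 4 and 6 in primed ASC, which is 1.72, 2.75, 0.903 and 1.23 CPM against 4.54, 24.2, 16.6 and 7.45 CPM. The fitted change was 2.71 (edgeR adjusted p = 0.0297). The difference between the change in EVs and that in cells was 0.44, with a 95% interval of -2.03 to 2.90 (interaction test in edgeR, adjusted p = 0.906), too wide to say that the changes were alike.

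Mir140 rose by a smaller factor from a far higher level. It is the source of miR-140, a miRNA abundant in cartilage. The hairpin lies at chr8:107551244-107551313, plus strand, in an exon of Wwp2, a ubiquitin ligase gene. Naive EV libraries 1 to 5 held 5718, 5539, 5696, 3486 and 4819 CPM, and primed EV libraries 1 to 5 held 9624, 8281, 9339.6, 9544 and 8361 CPM. The primed libraries were close together and all above the naive ones, among which naive EV 4 was lowest. The level in primed EVs was 1.79-fold that of naive EVs (log2 fold change 0.84 with an SE of 0.17, edgeR adjusted p = 0.011, 95% interval 0.48 to 1.19). The change in ASC was 1.01 (edgeR adjusted p = 0.00469), and EVs and cells differed by -0.17 (95% interval -0.70 to 0.36). The call of Mir140 was lost with library totals alone in place of TMM, where the log2 fold change was 0.53 and the adjusted p 0.222, and under 3 other settings. It was also lost without naive ASC 1 or 3 or primed ASC 2, 3, 4 or 5, with adjusted p-values up to 0.0924. Those cell libraries enter the EV contrast only through steps taken over all 18 libraries: the filter, the TMM scaling and the shared fit. The fold change itself also moved. Over the 18 fits without 1 library that of Mir140 ran from 0.72 to 0.97 on the log2 scale. Without any 1 of those 6 cell libraries that of Mir147 was 2.99 to 3.00, against 3.15. Which step moved them was not tested.

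Other loci had groups that did not overlap but did not pass. Mir155, from the host gene Mir155hg and known to rise when immune cells are activated, held 1097, 926, 835, 963 and 858 CPM in naive EVs 1 to 5 and 1112, 1138, 1642, 2378 and 1114 CPM in primed EVs 1 to 5. Primed EV 3 and 4 stood well above the other 3 primed libraries, which lay just above naive EV 1 (log2 fold change 0.66 with an SE of 0.26, edgeR adjusted p = 0.379). Mir148a, at chr6:51269812-51269910, minus strand between genes, held 10674, 10339, 9534, 9132 and 9399 CPM in naive EVs and 14428, 10896, 10820.0, 11659.6 and 14132 CPM in primed EVs. Its primed values fell into a pair, primed EV 1 and 5, and 3 libraries close to the naive range (log2 fold change 0.34 with an SE of 0.19, edgeR adjusted p = 0.546). Mir101b, in an intron of Rcl1, held 415, 446, 437, 362 and 273 CPM in naive EVs and 496, 479, 500.3, 516 and 482 CPM in primed EVs. Here the primed libraries were nearly equal and the naive ones spread downward (log2 fold change 0.36 with an SE of 0.25, edgeR adjusted p = 0.668). The sixth such locus, Mir3095 in an intron of Lpar1, was named after its values were seen, because it is the lowest of the 6. It had 2 counts in all naive EVs and 20 in all primed EVs, a depth-corrected ratio of 9.44 with a 95% counting interval of 2.29 to 83.3. That interval leaves out the spread between libraries. In the main test Mir3095 did not pass (log2 fold change 3.07, edgeR adjusted p = 0.0834), and it passed without naive EV 5 and without primed EV 2. The separation of Mir155, Mir148a and Mir101b was seen with TMM but not with DESeq2's size factors, TMMwsp or library totals alone, where their groups overlapped. With library totals alone Mir148a ranged over 7651 to 11189 CPM in naive EVs and 7902 to 10845 CPM in primed EVs, a log2 fold change of 0.03 (edgeR adjusted p = 0.96). On that scale Mir155 gave 0.34 and Mir101b 0.06 (edgeR adjusted p-values 0.516 and 0.953).

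**Figure D2:**
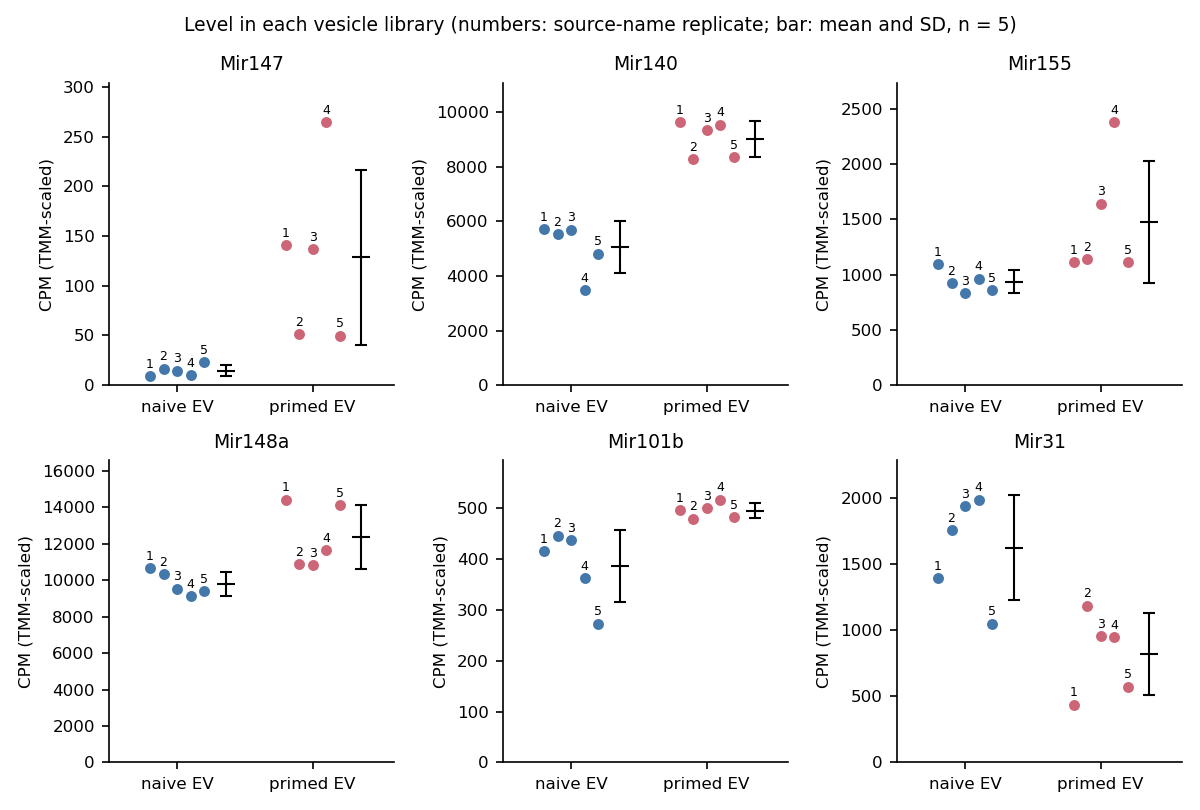
CPM of 6 loci in each EV library (points, numbered as in the source names), with the mean and SD of each group of 5. Mir147, Mir140, Mir155, Mir148a and Mir101b show primed libraries above all naive ones after TMM scaling, while Mir31 overlaps only where primed EV 2 (1187 CPM) exceeds naive EV 5 (1049.7 CPM).

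Inflammation and interferon responsive miRNAs were described as a list of 31, of which 23 were tested. Mir147 passed, and none passed in the lower direction, against 0.816% of all loci. By sign 17 of the 23 were above 0 and 6 below (median 0.19), against 51.8% of all loci above 0, but with library totals alone the split was 7 above and 16 below. Mir21a, one of the most abundant miRNAs of fibroblasts, held 120140 ± 13907 CPM in naive EVs and 138413 ± 12276 CPM in primed EVs (SD, n = 5 each; log2 fold change 0.20 with an SE of 0.18, edgeR adjusted p = 0.689). Mir146, whose miR-146a is a feedback inhibitor of NF-kB signalling, ranged over 39.7 to 155 CPM in naive EVs and 22.9 to 152 CPM in primed EVs (log2 fold change 0.14 with an SE of 0.46, edgeR adjusted p = 0.936). For Mir132 the ranges were 826 to 1510.2 CPM in naive EVs and 1032 to 2112 CPM in primed EVs (log2 fold change 0.45 with an SE of 0.25, edgeR adjusted p = 0.529). The neighbours Mir221 and Mir222 on chromosome X gave 0.22 and 0.17 on the log2 scale, and Mir29a, of a family that targets collagen messages, gave 0.21. All 3 had edgeR adjusted p-values of at least 0.704. For Mir21a, Mir146, Mir132, Mir221, Mir222 and Mir29a the ranges of the 2 groups overlapped.

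Mir31 had the lowest fold change on that list. miR-31 is a miRNA of fibroblasts and epithelia, and its hairpin lies at chr4:88910557-88910662, minus strand, in an exon of the long non-coding RNA AL805899.1. Naive EVs 1 to 5 held 1395, 1758, 1939, 1988 and 1049.7 CPM and primed EVs 1 to 5 held 436, 1187, 958, 948 and 574 CPM. Primed EV 1 and 5 were lowest, and the groups overlapped through primed EV 2 alone. The fitted change missed the threshold (log2 fold change -0.98 with an SE of 0.29, edgeR adjusted p = 0.109), though 6 of 15 alternative settings passed it. These were DESeq2, the fit without the filter on low counts, and the fits with a replicate block. The replicate numbers of those blocks did not meet the rule for pairing given below.

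Other loci with the smallest p-values and lower levels were Mir298, Mir351, Mir181b-2, Mir758, Mir92-2 and Mir5099. Mir298, on chromosome 2 in the imprinted Gnas region, held 1005, 1353, 1244, 884 and 1405 CPM in naive EVs and 667, 762, 740.2, 590.1 and 950.2 CPM in primed EVs (log2 fold change -0.67 with an SE of 0.19, edgeR adjusted p = 0.102). The overlap was between primed EV 5 and naive EV 4. Its change in cells was -0.74 and passed there (edgeR adjusted p = 0.0331). Its neighbour Mir296 made up the rest of that pair and did not pass. Mir351, on chromosome X, ranged over 2025 to 3568 CPM in naive EVs and 1337 to 2273 CPM in primed EVs (log2 fold change -0.58 with an SE of 0.20, edgeR adjusted p = 0.228), and its change in cells was -1.07 (edgeR adjusted p = 0.00762). Mir181b-2 gave -0.43, and all 6 tested loci with the seed ACAUUCA, the miR-181 family known from lymphocytes, were below 0. Mir758, of the Dlk1-Dio3 imprinted cluster, gave -0.85 in EVs and -1.51 in cells. Mir92-2 gave -1.29 at low levels, 9.92 to 22.6 CPM in naive EVs and 0 to 13.0 CPM in primed EVs. Mir5099, an annotated locus that resembles an abundant RNA, gave -0.60. None of these passed in EVs in the main test, with edgeR adjusted p-values of 0.102 to 0.428. Mir298 passed under 4 of 15 alternative settings, which were DESeq2 and fits with a replicate block. Mir351 and Mir181b-2 passed under 1 each, the replicate block by title number in EV libraries alone.

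let-7 miRNAs, which restrain growth genes such as Ras and Lin28 in differentiated cells, had mostly positive values but no member passed. Of 12 tested loci 11 were above 0 and Mir98 was below (median 0.27), and 5 had an unadjusted p under 0.05, against 6.53% of all loci in that direction. With library totals alone, 5 were above 0 and 7 below. The strongest was Mirlet7c-2, which held 3118, 2339, 3577, 2902 and 3111 CPM in naive EVs and 4487, 3307, 5154, 5271 and 4039.9 CPM in primed EVs (log2 fold change 0.56 with an SE of 0.17, edgeR adjusted p = 0.109). Primed EV 2 lay below naive EV 3, and the other 4 primed libraries lay above all naive ones. Mirlet7f-1 gave 0.45, Mirlet7c-1 0.37, Mirlet7b 0.34, Mirlet7i 0.25 and the low Mirlet7a-1 0.74 on the log2 scale. Mirlet7c-1 and Mirlet7c-2 make the same let-7c-5p, and Mirlet7c-2 and Mirlet7b lie together on chromosome 15. As a share of all counts, the let-7 loci took 9.17% ± 0.784 in naive EVs and 9.21% ± 0.425 in primed EVs (SD, n = 5 each), a difference smaller than the spread.

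The miR-99/100 and miR-125 loci, which lie in clusters with let-7 genes, were all 6 above 0 with TMM (median 0.29) and 3 above and 3 below with library totals alone. Mir125b-2 held 1061, 915, 1356, 1045 and 1063 CPM in naive EVs and 1928, 1334, 1577, 1887 and 1441 CPM in primed EVs (log2 fold change 0.59 with an SE of 0.16, edgeR adjusted p = 0.0834), a change that passed without naive EV 1 or 3 or primed EV 2 or 5. Naive EV 3 and primed EV 2 overlapped. Its change in cells was 0.98 (edgeR adjusted p = 0.00469). Mir125b-1, which makes the same miR-125b-5p from chromosome 9, gave 0.40 in EVs and 0.68 in cells, where it passed (edgeR adjusted p = 0.0115). Mir125a gave 0.19 in EVs and 0.82 in cells (edgeR adjusted p = 0.00883). Mir99a, which shares the host transcript Mir99ahg with Mirlet7c-1 and Mir125b-2, ranged over 934 to 1522 CPM in naive EVs and 1139 to 2554 CPM in primed EVs (log2 fold change 0.70 with an SE of 0.26, edgeR adjusted p = 0.267). The fourth locus with the seed CCCUGAG, Mir351, had the opposite sign, as given above, so loci of 1 seed did not share a direction.

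The most abundant vesicle miRNAs were the same 5 loci in both groups and none passed. Mir22, which made up the largest part of the counts, held 296393 ± 31662 CPM in naive EVs and 380199 ± 39812 CPM in primed EVs (SD, n = 5 each; log2 fold change 0.36 with an SE of 0.22, edgeR adjusted p = 0.572). Mir143, a miRNA of smooth muscle and stromal cells, gave 0.28 in EVs (edgeR adjusted p = 0.673) and -0.89 in cells, where it passed (edgeR adjusted p = 0.0233). The difference of those changes was 1.17 (95% interval 0.52 to 1.82), which did not pass over all loci (interaction test in edgeR, adjusted p = 0.232). The Hox cluster miRNAs Mir10a and Mir10b gave 0.51 and 0.83. Mir10b held 34575, 24065, 48273, 30025 and 32485 CPM in naive EVs and 108557, 44066, 39334, 53100.1 and 55187 CPM in primed EVs, with primed EV 1 far above the others. Over the 31 tested mesenchymal and fibroblast loci none passed, 26 were above 0 and 5 below (median 0.25), and with library totals alone 13 were above and 18 below. Mir31 and Mir351, described above, are on this list.

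The scaling bears on these signs. TMM factors were 0.803 to 1.08 in naive EVs and 0.678 to 0.879 in primed EVs, and the median change over all loci, on the log2 scale, was 0.02 with TMM, -0.05 with DESeq2's size factors, -0.11 with TMMwsp and -0.25 with library totals alone. The 5 most abundant loci of a library took 67.7% ± 1.24 of counts in naive EVs and 70.3% ± 0.938 in primed EVs (SD, n = 5 each; exact two-sided permutation test, p = 0.0159, 0.0635 adjusted over 4 make-up measures; the smallest possible p is 0.00794). After thinning to 613448 counts, 339.2 ± 13.1 loci had a count in naive EVs and 320 ± 10.2 in primed EVs (p = 0.0397, adjusted 0.0794, same exact permutation test). Library totals (p = 0.667) and the share of loci resembling abundant RNA, 0.381% against 0.284% (p = 0.294), gave adjusted p-values of 0.667 and 0.392 in the same exact permutation tests. Their part in the locus results was not tested beyond the scalings given.

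miRNAs of cartilage, bone and fat cell differentiation numbered 27 among the tested loci. Mir140 passed and no other did. Of the 27, 16 were above 0 and 11 below (median 0.12), and with TMMwsp 11 were above and 16 below. Mir30a, from a family linked to fat cell differentiation, gave 0.28 (edgeR adjusted p = 0.682). The Dlk1-Dio3 imprinted cluster on chromosome 12, with 34 tested loci, had 15 above 0 and 19 below (median -0.02). Its member Mir411 gave 0.32. The 9 tested loci of the 17-92 cluster and its paralogs, which promote proliferation, were all below 0 (median -0.23) and none passed. Without naive EV 4 or without primed EV 2, 5 of the 9 were below 0 and 4 above. Mir92-1 ranged over 6697 to 11909 CPM in naive EVs and 3763 to 7718 CPM in primed EVs (log2 fold change -0.47 with an SE of 0.23, edgeR adjusted p = 0.465), and Mir93 gave -0.17. Of the 8 tested mirtron and Drosha- or Dicer-independent loci none passed (median -0.02). Of 8 tested loci that resemble abundant RNA none passed, with 1.37 for Mir5114 in a UTR of Scd2, -0.24 for Mir6236 and -0.10 for Mir5112. Mir5114 held 19.6, 22.6, 18.9, 16.6 and 24.8 CPM in naive EVs and 95.8, 16.4, 67.9, 30.3 and 60.3 CPM in primed EVs, with primed EV 2 below all naive libraries and primed EV 1, 3, 4 and 5 above them (log2 fold change 1.37 with an SE of 0.42, edgeR adjusted p = 0.109). Mir708, in an intron of Tenm4, ranged over 1.96 to 18.04 CPM in naive EVs and 6.71 to 62.0 CPM in primed EVs (log2 fold change 1.54 with an SE of 0.67, edgeR adjusted p = 0.428). The one tested locus of the Sfmbt2 repeat cluster, Mir467d, gave 0.63.

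**Figure D3:**
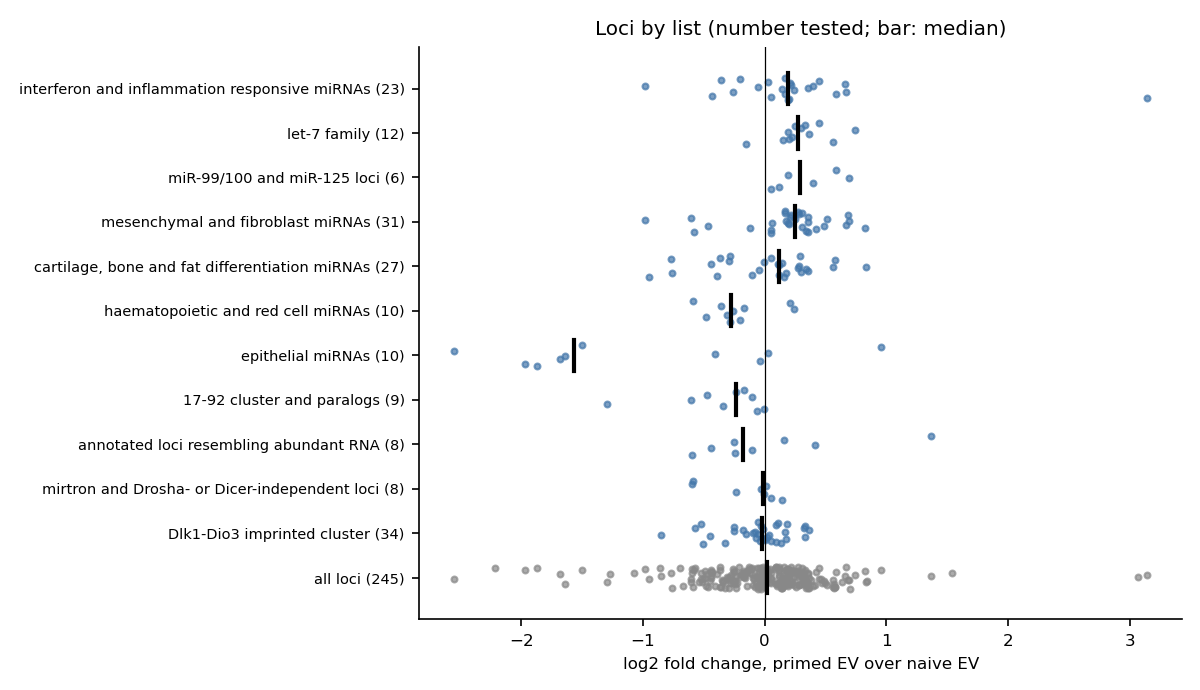
Log2 fold change of primed over naive EVs for each tested locus (points), grouped by list, with the median as a bar. Of the lists with at least 6 tested loci, epithelial miRNAs have the lowest median, -1.57, and all loci together lie at 0.02.

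Markers of other cells varied widely between libraries of the same group. The 6 epithelial markers, the miR-200 family and Mir205, summed to 15.7, 34.5, 1390.0, 3350.2 and 607 CPM in naive EVs 1 to 5 and to 69.5, 8.20, 822, 555 and 141 CPM in primed EVs 1 to 5. Naive EV 3 and 4 were highest and primed EV 2 lowest, and the groups overlapped. At Mir205 the parent cells varied by replicate number in a like way, with 18.9, 1220, 1935 and 237 CPM in naive ASC 1, 3, 4 and 5. Primed ASC 2, 3, 4 and 5 held 40.0, 987, 772 and 49.7 CPM of it. Mir141 stayed at 1.24 to 5.49 CPM in all the cell libraries. What libraries of 1 number share is not stated in the labels. None of 10 tested epithelial loci passed, 8 were below 0 and 2 above (median -1.57). Without naive EV 4 the median was -0.25. Mir205, Mir141, Mir200b and Mir200c, named after their values were seen, gave -1.68, -1.87, -1.97 and -2.55 with SEs of 1.27, 0.99, 1.19 and 1.29. Without the filter on low counts all 4 passed. The sequences of 3 of them show the seed AAUACUG shared by Mir200b and Mir200c and the different one of Mir205.
miR-200b-3p: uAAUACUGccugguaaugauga
miR-200c-3p: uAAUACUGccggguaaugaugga
miR-205-5p: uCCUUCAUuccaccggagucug

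Blood markers, 6 loci led by Mir142b and Mir451a, summed to 3972, 4062, 5743, 17398 and 6744 CPM in naive EVs 1 to 5 and 7626, 1677, 4629, 9229 and 5506 CPM in primed EVs 1 to 5. None of 10 tested haematopoietic and red cell loci passed, 2 were above 0 and 8 below (median -0.27). Without naive EV 4, 6 were above 0 and 4 below (median 0.15). Mir451a, a red cell miRNA, gave -0.58 (SE 0.49), and the counts at Mir142b, which overlaps the haematopoietic Mir142 hairpin on the other strand, gave -0.28 (SE 0.42). Naive EV 4 was highest in both. The endothelial Mir126a ranged over 3673 to 10544 CPM in naive EVs and 2251 to 6948 CPM in primed EVs (log2 fold change -0.34 with an SE of 0.44, edgeR adjusted p = 0.83), and without naive EV 4 the change was -0.0171. Among liver miRNAs Mir192 was the one tested, at 0.05. Neural loci above the filter were 3, with -0.37 for Mir128-1 and -0.19 for Mir129-2. No muscle locus reached the filter. The part of epithelial and blood miRNAs in the results for Mir147 and Mir140 was not tested.

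Across the 10 libraries, the first principal component held 43.5% of the variance, and Mir205 had its largest loading. It did not part the priming groups. The second, with 15.7%, placed naive libraries at 0.525 to 4.04 and primed libraries at -9.58 to -1.46, except primed EV 2 at 3.09. Mir147 had the largest loading on the second component, and Mir708, Mir5114 and Mir3095 came next on its side. That placement is therefore not separate from the results for single loci. Primed EV 2 is also the library in which Mir31, Mir125b-2 and Mirlet7c-2 overlapped the naive range and Mir5114 lay below it. Without primed EV 2, 8 loci passed in place of 2, the other 6 being Mir31, Mir125b-2, Mirlet7c-2, Mir99a, Mir5114 and Mir3095. Mir31, Mir125b-2, Mirlet7c-2 and Mir5114 are the loci by which this library was singled out. Their passing without it follows in part from that choice and is not separate support. Leaving out 1 library gave 1 to 8 loci, so 8 is the highest count.

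**Figure D4:**
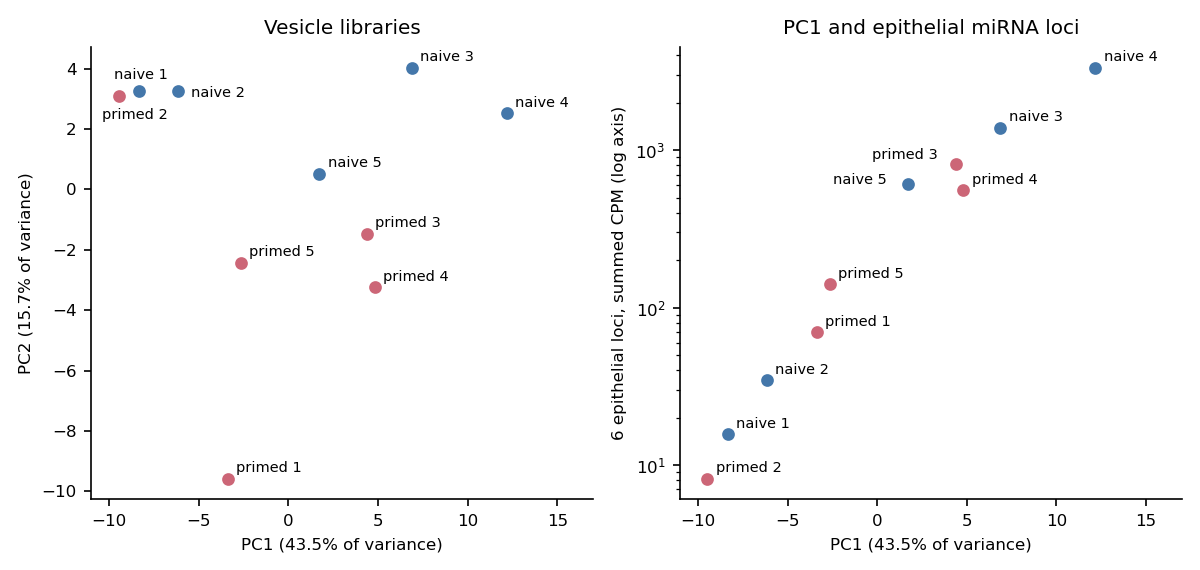
The 10 EV libraries on the first 2 principal components of log2 CPM (left), and the summed CPM of the 6 epithelial loci (log axis) against the first component (right). Naive EV 4 has the highest epithelial sum (3350.2 CPM) and primed EV 2 the lowest (8.20 CPM), and primed EV 2 lies among naive libraries on the second component.

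The parent cells had more loci past the threshold under priming, 25 of 245 (10.2%), and the EV values of those loci were read beside them. The 2 contrasts share no library but come from 1 fit. Of the 25, 19 had the same sign in EVs, 8 had an unadjusted p under 0.05 there and 2, Mir147 and Mir140, passed in both. Over all 245 loci, 10.2% had an unadjusted p under 0.05 in EVs and 0.816% passed there. The share with the same sign over all loci is not given here, and the signs are those with TMM. The 13 loci higher in primed ASC had a median of 0.42 in EVs, and the 12 lower ones had a median of -0.02. Mir7224, in an intron of B3galt1 and named after its values were seen, gave 2.04 in cells and 0.84 in EVs, where without naive EV 1 it gave 1.57 and passed (edgeR adjusted p = 0.0481). Mir6236 gave 1.54 in cells and -0.24 in EVs. No locus passed the interaction test in edgeR, and 26 (10.6%) had an unadjusted p under 0.05. Without the filter on low counts 3 passed, and with DESeq2 also 3.

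**Figure D5:**
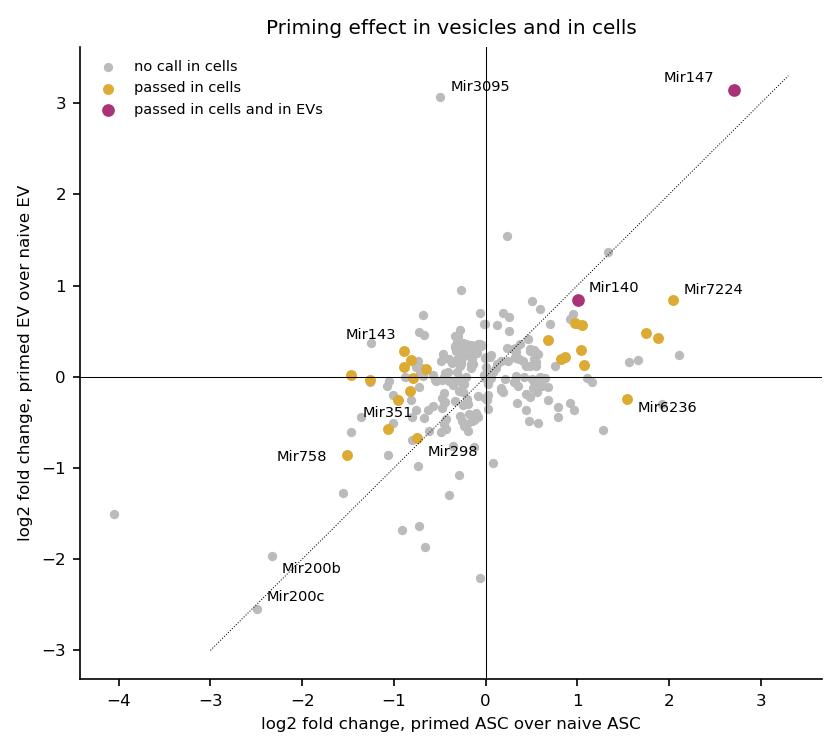
Log2 fold change under priming in EVs (vertical axis) against that in ASC (horizontal axis) for 245 loci, with equal changes on the dotted line. Mir147 and Mir140 are the 2 loci that passed in both, and Mir143 (with TMM) and Mir6236 have opposite signs in EVs and cells.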

How the data were processed

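Small RNA was sequenced from EVs and ASC. Per the labels' protocols, EV RNA was isolated with a SeraMir column kit and cell RNA with TRIzol and RNeasy columns, and libraries were made with a TruSeq small RNA kit. The authors deposited raw counts per annotated miRNA locus. Per the file headers they came from featureCounts 1.5.3 on Ensembl release 76, without strand, while the submitters' processing notes name featureCounts 1.45, STAR 2.0.4, Subread and bcl2fastq on GRCm38. How reads were trimmed and which aligner options were set is not stated there. Of 2009 loci, 1899 matched GENCODE by identifier.

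Counts were analysed with edgeR 4.0.16 in R 4.3.3: filterByExpr over the 4 groups (245 loci, 99.9573% of counts), TMM scaling, 1 quasi-likelihood fit of all 18 libraries, and Benjamini-Hochberg adjustment over the 245 loci with a threshold of 0.05. SEs are the fold change over the square root of F. Sequences came from RefSeq. limma 3.58.1 and DESeq2 1.42.0 served alternatives. The scripts were tested on simulated data.

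Loci named are those that passed, those of at least 10 CPM whose groups did not overlap, the 20 smallest p-values, the 5 most abundant per group, the 2 most abundant members of each of 17 lists and a fixed set of inflammatory and marker loci. List members within 0.1 of 0 were counted and mostly not named. Members and lists were chosen with earlier results of these data known.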

Additional observations from a re-analysis of the deposited data

Results flagged for a closer look

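Among 114 groups of 5 values checked, 8 had 1 library whose gap to the nearest other was a larger part of the group's range than Dixon's 95% limit allows. Chance flags about 1 in 20 groups. None of these loci passed the priming test. Mir10b was highest in primed EV 1 at 108557 CPM, with the next library at 55187 CPM. In naive EVs, naive EV 4 was highest for Mir142b at 6677 CPM, for Mir451a at 7809.8 CPM, for Mir150 at 1432 CPM and for Mir200c at 93.0 CPM. The first 3 are blood miRNAs and the last is epithelial. Mir146 was highest in naive EV 3 at 155 CPM, and Mir7224 in naive EV 1 at 27.9 CPM. Mir222 was highest in primed EV 4 at 2778 CPM. Without naive EV 4 the log2 fold change of Mir451a was 0.14 and that of Mir142b 0.22.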

How the results depend on the processing

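Under 15 alternatives and 18 fits without 1 library, Mir147 kept its direction and passed wherever it was tested. It was not tested with a mean of at least 50 counts or after thinning. The loci past the threshold numbered 1 with TMMwsp and with library totals alone, 8 with no filter on low counts (3 higher, 5 lower), 0 with a mean of at least 50 counts (15 at an unadjusted p under 0.05) and 0 after thinning to 180812 counts (16 unadjusted), and 5 with DESeq2 (3 higher, 2 lower). Leaving out 1 library gave 1 to 8, with 4 without naive EV 1, 8 without primed EV 2 and 1 without naive ASC 1 or 3 or primed ASC 2, 3, 4 or 5. Interaction calls numbered 3 with no filter and 3 with DESeq2, and 0 to 1 without 1 library (1 without naive ASC 5). Replicate numbers did not meet the rule for pairing, a correlation over 0.1 in every pair: deviations of same-numbered EV libraries correlated at 0.046 to 0.525 by the source names (4 of 5 over 0.1) and 3 of 5 exceeded 0.1 by the titles, and 2 and 1 primed libraries correlated best with their own number. All same-numbered pairs correlated above 0, and Mir205 was highest in the libraries numbered 3 and 4 in each of the 4 groups. Failing the rule therefore does not show that same-numbered libraries are unrelated. A replicate block by source number gave 3 loci and by title number 7. In EV libraries alone, 2 passed without a block, 14 with a replicate block by title number (4 higher, 10 lower) and 4 with one by source number, a setting chosen after seeing the data. Mir205 and Mir200b passed with the title block, at -1.90 and -2.31. Mir205, Mir200b and Mir141 were lower in the primed library of all 5 pairs by title (Mir205 at -3.01 to -0.76 on the log2 scale). In these pairs naive EV 5 served for both primed EV 1 and primed EV 5, and naive EV 1 was in none. By source number naive EV 1 pairs with primed EV 1. There Mir205 was at 10.8 and 45.1 CPM and Mir200b at 0 and 5.64 CPM, higher in the primed library. With library totals alone the sign reversed for Mir143 (-0.0023), Mir21a (-0.0868), Mirlet7i (-0.0374), Mir125a (-0.10), Mir146 (-0.13), Mir221 (-0.0417), Mir222 (-0.14) and Mir29a (-0.0634). After thinning Mirlet7a-1 gave -0.22, and with the title block in EVs alone Mir146 gave -0.00392. Leaving out 1 library reversed others, with ranges of -0.38 to 0.18 for Mir129-2, -0.46 to 0.22 for Mir142b, -0.15 to 0.66 for Mir146, -0.78 to 0.14 for Mir451a, -0.51 to 0.15 for Mir5112, -0.30 to 0.12 for Mir6236 and -0.26 to 0.16 for Mir93. For make-up, the difference in library totals ran from -161554 (without primed EV 2) to 527759, that in loci after thinning from -23.5 (adjusted p 0.0476 without naive EV 5, exact permutation test) to -14.75, that in the share of loci resembling abundant RNA from -0.137 to -0.0322 points, and that in the 5 most abundant loci from 2.29 to 3.00 points (adjusted p 0.0317 without naive EV 1 and 0.0476 without naive EV 5, exact permutation tests). For the 10 most abundant it was 2.33 points (adjusted p 0.0317). The cause was not tested.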

Other observations

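The titles of the primed EV libraries carry endings whose meaning is not stated: IFG1 for primed EV 2 and 5, IFG2 for primed EV 1 and 4, and IFG1+2 for primed EV 3. Noticed after the values were seen, Mir147 was at 51.1 and 49.9 CPM in the IFG1 libraries, at 141 and 264 CPM in the IFG2 libraries and at 137 CPM in the other. Mir140 was at 8281 and 8361 CPM in the IFG1 libraries and at 9624 and 9544 CPM in the IFG2 libraries. Not all loci split in this way. Mir155 was at 1138 and 1114 CPM in the IFG1 libraries and at 1112 and 2378 CPM in the IFG2 libraries. Mir31 was at 1187 and 574 CPM in the IFG1 libraries and at 436 and 948 CPM in the IFG2 libraries. No test was run on these endings.

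Of 1764 loci below the filter, 343 had a count in an EV library, 4527 counts in all.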
